A study of Homo sapiens with 12 samples.

Results

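The genes of the lysosome and of autophagy were followed in HK-2, a cell line immortalized from human kidney proximal tubule epithelium, after exposure to a compound that the labels call Nnm. The list held 34 genes: 3 transcription factors of the MiT/TFE family, 4 lysosomal membrane proteins, 9 lysosomal enzymes, 5 subunits of the proton pump, a Rag GTPase with folliculin, 4 genes that start autophagy, 4 ATG conjugation genes and 3 genes of the ATG8 family. They were chosen by name, with earlier results of these data known. Each was read from the probe set that names that gene alone and had the highest mean over all 12 arrays. All 34 had such a probe set and passed the filter on low values, among 10963 tested genes and 22829 tested probe sets (of 54675). The arrays were Affymetrix expression arrays, 1 per culture, with 4 groups of 3 biological replicates: Nnm at a high dose for 24 h, vehicle control for 24 h, Nnm at a high dose for 48 h and vehicle control for 48 h. All groups shared 1 medium, a mix of DMEM and Ham's F12 to which EGF, insulin, transferrin, selenite and hydrocortisone were added, and all were treated close to confluence. Neither the dose in numbers nor the vehicle is given in the sources used here. The series comes from a study of nephrotoxic compounds in these cells, and the question at each time is which transcripts differ between Nnm and vehicle.

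Lysosomes are acidic compartments in which enzymes break down what the cell takes up or digests of itself. Proximal tubule cells rely on them to degrade the protein they reclaim from the filtrate. In autophagy a membrane built by the ATG proteins and marked with lipid-bound ATG8 proteins encloses cytoplasm and fuses with a lysosome. TFEB, TFE3 and MITF are held in the cytoplasm when mTORC1, recruited to the lysosome by Rag GTPases, phosphorylates them; once in the nucleus they bind an E-box with the core CACGTG in promoters of many lysosomal and autophagy genes. The arrays measured transcripts, and neither the location nor the phosphorylation of these factors was measured. Each array held RNA of a whole culture, so fewer cells with a transcript and less of it per cell cannot be told apart.

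Promoters are shown first because the E-box is the element that TFEB, TFE3 and MITF are known to bind. RefSeq promoters of GRCh38.p14, from 250 bases before to 50 after 1 annotated start a gene, were matched for 25 of the 34 genes. The core CACGTG, a palindrome that reads the same on both strands, was in 7 of these 25 windows (28.0%), against 1851 of 22199 protein-coding promoters (8.34%). Its longer form with a T before and an A after the core, also a palindrome and always overlapping the core, was in 5 of 25 (20.0%), against 1.27% of protein-coding promoters. The stretches below are the 250 bases before the start, 5′ to 3′ on the gene's strand, with each core in capitals. LAMP1 (chr13:113296989-113297238, plus strand) has the most cores of any member, 6 in its window, of which the last spans the start and is left in lower case. MCOLN1 (chr19:7522374-7522623, plus strand) and GAA (chr17:80101331-80101580, plus strand) have 2 each, and ATP6V0D1 (chr16:67481158-67481407, minus strand) has 1. GABARAPL1 (chr12:10212627-10212876, plus strand) and ATG12 (chr5:115841566-115841815, minus strand), the members with the lowest adjusted p at 24 h, have none in this window.
LAMP1: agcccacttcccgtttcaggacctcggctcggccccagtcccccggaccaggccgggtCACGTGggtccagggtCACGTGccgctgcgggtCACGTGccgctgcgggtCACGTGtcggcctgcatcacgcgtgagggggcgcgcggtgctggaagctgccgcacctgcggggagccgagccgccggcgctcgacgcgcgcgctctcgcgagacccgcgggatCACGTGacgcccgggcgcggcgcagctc
MCOLN1: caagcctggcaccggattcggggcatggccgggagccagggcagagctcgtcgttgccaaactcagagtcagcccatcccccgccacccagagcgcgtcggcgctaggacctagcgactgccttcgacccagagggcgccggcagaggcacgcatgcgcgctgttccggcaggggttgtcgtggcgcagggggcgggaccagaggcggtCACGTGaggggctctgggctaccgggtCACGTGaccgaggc
GAA: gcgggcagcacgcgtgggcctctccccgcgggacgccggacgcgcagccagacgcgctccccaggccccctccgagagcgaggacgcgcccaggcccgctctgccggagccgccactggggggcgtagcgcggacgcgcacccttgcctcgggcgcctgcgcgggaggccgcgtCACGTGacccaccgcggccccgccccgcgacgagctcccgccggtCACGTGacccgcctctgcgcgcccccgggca
ATP6V0D1: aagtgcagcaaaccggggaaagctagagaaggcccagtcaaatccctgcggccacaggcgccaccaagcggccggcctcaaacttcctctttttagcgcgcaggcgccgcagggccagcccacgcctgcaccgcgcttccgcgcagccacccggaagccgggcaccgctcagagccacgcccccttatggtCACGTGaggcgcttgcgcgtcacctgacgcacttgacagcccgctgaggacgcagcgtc
GABARAPL1: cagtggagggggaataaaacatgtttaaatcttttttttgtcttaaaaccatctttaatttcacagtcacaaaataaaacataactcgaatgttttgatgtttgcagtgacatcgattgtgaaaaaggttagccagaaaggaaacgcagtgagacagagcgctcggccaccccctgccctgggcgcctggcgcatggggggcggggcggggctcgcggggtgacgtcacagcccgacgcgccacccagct
ATG12: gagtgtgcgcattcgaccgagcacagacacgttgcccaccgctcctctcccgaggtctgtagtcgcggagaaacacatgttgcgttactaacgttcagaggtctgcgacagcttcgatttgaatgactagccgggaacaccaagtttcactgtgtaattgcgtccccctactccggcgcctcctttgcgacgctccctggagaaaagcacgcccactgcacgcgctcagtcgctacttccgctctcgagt

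Array medians lay between 2.91 and 2.98 on the log2 scale. On the first principal component, with 57.4% of the variance, controls scored -49.6 to -44.2 (6 arrays). The Nnm arrays numbered 1 and 3 scored 68.6 to 87.8, but those numbered 2 only -16.1 (24 h) and -19.8 (48 h), which is closer to the controls than to the rest of the treated arrays. Counts are therefore given with all arrays and without both Nnm arrays numbered 2, and so are the values of members whose call changes. Both arrays were picked for scores near the controls in these same data. Leaving them out keeps only Nnm replicates 1 and 3 at each time, and tends to enlarge changes and lower p. Values from that fit are therefore a description and no independent support. Replicate numbers also paired the arrays by a check on the values, so members' calls, and counts of calls, that change when the number enters the model as a block are given both ways. Of 12 proximal tubule markers, KRT8, KRT18, CDH2 and PDZK1 passed the filter, while LRP2, CUBN, ANPEP, GGT1, MME, AQP1, SLC34A1 and SLC22A6 did not. All markers of macrophages (5 of 5) and all 5 distal nephron markers with a probe set were under it too. Of the other marker genes, 3 of 7 for fibroblasts, 1 of 5 for endothelial cells and 2 of 5 for podocytes passed the filter, and limma called 0 of these 6 at either time. With the block, COL1A1 of the fibroblast list was lower at 24 h, and SYNPO at 24 h and PODXL at 48 h of the podocyte list were higher. Among the proximal tubule markers CDH2 rose by 0.75 at 48 h (limma adjusted p = 0.0483) and differed by 0.46 at 24 h (0.142, and 0.0387 with the block). KRT8 differed by -0.59 at 24 h (0.271, and 0.0222 with the block) and by -0.27 at 48 h. KRT18 differed by -0.65 at 24 h, with all Nnm arrays below all controls (0.150, and 0.0576 with the block), and by 0.17 at 48 h; without both Nnm arrays numbered 2 it was called at both times (-0.60, 0.0178, and 0.59, 0.0221). The summed log2 level of all fibroblast markers was 42.4 to 43.4 in control and 40.3 to 42.9 in Nnm arrays at 24 h, and that of the podocyte markers 17.4 to 18.0 and 18.2 to 19.1. Their part in the results below was not tested.

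Expression of the 34 genes was high for this table. Their means over the 12 arrays ran from 5.39 for TFEB to 13.26 for LAMP1, with a median of 10.06 against 8.48 for all tested genes. These are log2 levels of different probe sets and rank no gene against another.

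At 24 h, autophagy genes made up all the members called by limma. GABARAPL1, ATG12, ATG5 and UVRAG were higher with Nnm and ATG7 was lower, at a Benjamini-Hochberg adjusted p under 0.05 over all tested probe sets. That is 11.8% of the list higher, against 8.31% of all tested genes, and 2.94% lower, against 8.21%, so the number called was near that of the whole table. With the replicate block 11 genes were higher (32.4%, against 15.6% of all tested genes) and 2 lower (5.88%, against 15.9%). Without both Nnm arrays numbered 2, 18 were higher (52.9%, against 25.4%) and 2 lower (5.88%, against 24.5%). All Nnm arrays were above all controls for 10 genes (29.4%, against 19.6%) and below them for 1 (2.94%, against 20.0%). The median change of the 34 genes was 0.26 on the log2 scale, where 1 is a 2-fold change, against -0.01 for all tested probe sets. Single changes ran from -1.03 (ATG7) to 2.09 (ULK1), and 23 of 34 lay above 0 (67.6%, against 49.6% of all tested genes).

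The replicates carried this unevenly. The median difference over the 34 genes was 0.65 for replicate 1, 0.06 for replicate 2 and 0.52 for replicate 3. Ignoring sign, the median difference was 0.87, 0.26 and 0.77 for the same replicates, against 0.51, 0.22 and 0.50 for all tested genes. The number of members called higher by limma at 24 h fell to 0 when Nnm replicate 1 or 3 or control replicate 1 or 3 of that time was left out, and to 1 (ATG12) without control replicate 2. It was 17 without Nnm replicate 2 of 24 h and 9 without Nnm replicate 2 of 48 h, and 2 or 3 when any other 48 h array was left out. The whole table moved in the same way. Of 22829 probe sets limma called 3366 at 24 h with all arrays, in either direction. It called 8683 without Nnm replicate 2 of 24 h and 4956 without Nnm replicate 2 of 48 h. Without Nnm replicate 1 or 3 or control replicate 1 or 3 of 24 h it called 81 to 404, and 1973 without control replicate 2. With no filter limma called 0 members at either time; at 24 h 11 higher and 1 lower had an unadjusted p under 0.05. The block fitted within 1 time, on 6 arrays, also gave 0 calls at either time over all probe sets, while 7555 and 7612 had an unadjusted p under 0.05.

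**Figure D1:**
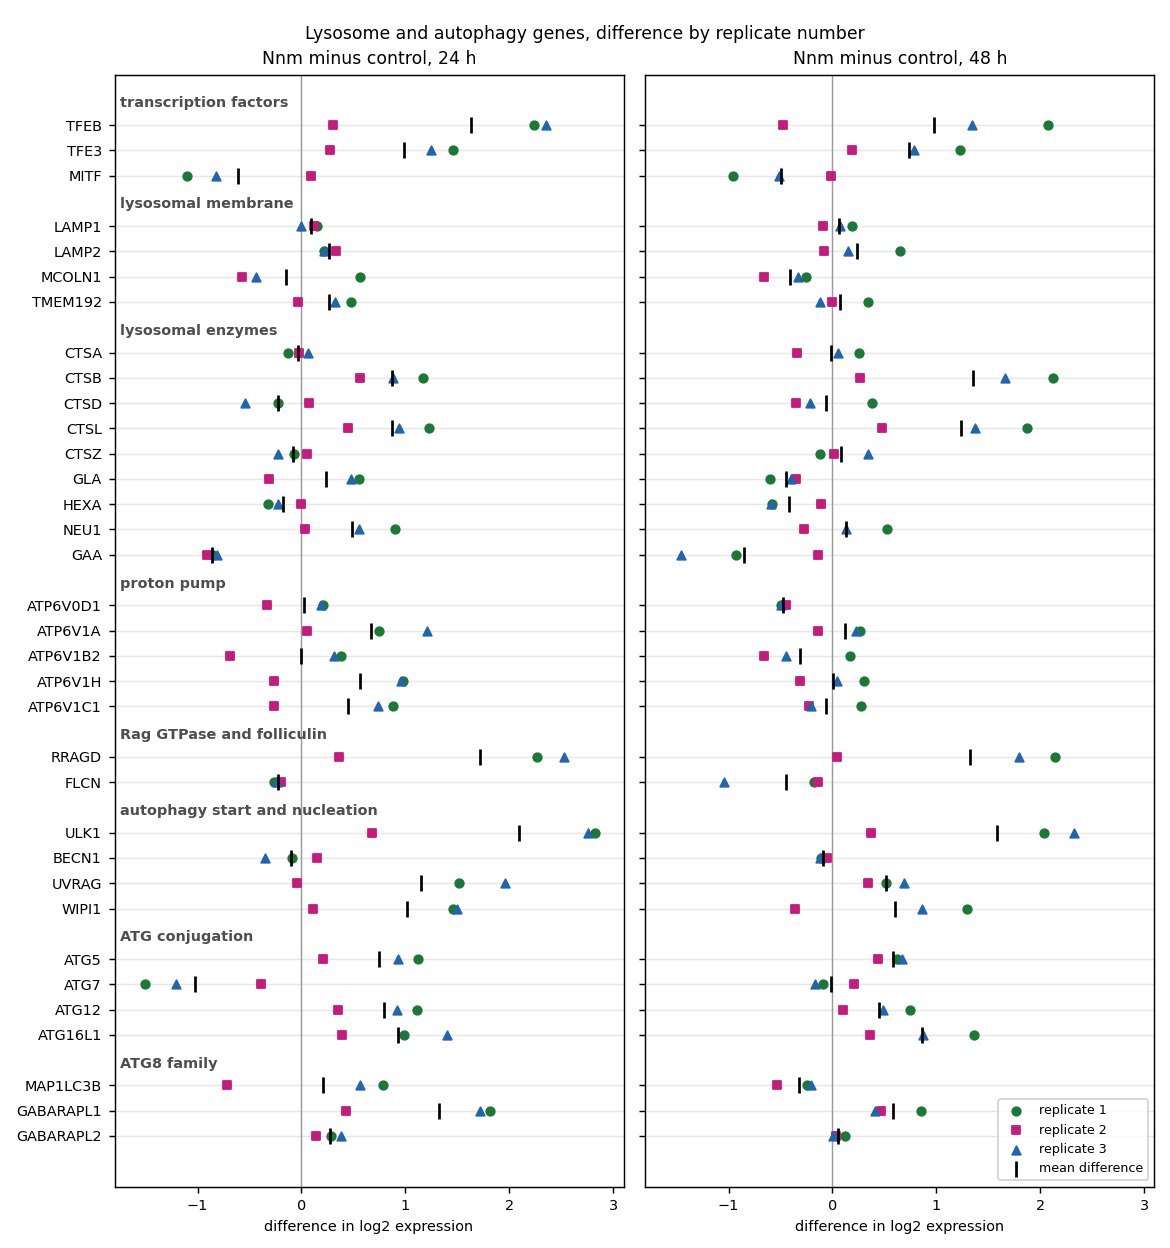
Difference in log2 expression, Nnm minus the control of the same replicate number, for each of the 34 genes at 24 h (left) and 48 h (right), grouped by role. Symbols are the 3 replicates and black bars their mean; at 24 h replicate 2 lies nearer 0 than replicates 1 and 3 for most of the genes with a large mean, such as ULK1 at 0.68 against 2.83 and 2.76.

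At 48 h fewer members were called than at 24 h. Cathepsin L (CTSL) was the only member called by limma. It makes 2.94% of the list higher, against 6.55% of all tested genes, and 0 were lower, against 4.27%. At an unadjusted p under 0.05 there were 7 members at this time (20.6%, against 30.6% of all probe sets) and 14 at 24 h (41.2%, against 35.8%). With the block CTSB, CTSL, ULK1 and ATG16L1 were higher (11.8%, against 13.2% of all tested genes) and HEXA, GAA and ATP6V0D1 lower (8.82%, against 9.68%). Without both Nnm arrays numbered 2, 13 were higher (38.2%, against 24.9%) and 4 lower (11.8%, against 19.9%). All Nnm arrays were above all controls for 6 genes (17.6%, against 20.7%) and below them for 7 (20.6%, against 16.9%). Shares at 48 h were thus near the background except in the fit without those arrays. The median change was 0.07, against 0.02 for all tested genes, with a range of -0.85 (GAA) to 1.58 (ULK1). Of the 34 changes 20 lay above 0 (58.8%, against 52.1% of all tested genes). The median difference was 0.29 for replicate 1, -0.08 for replicate 2 and 0.06 for replicate 3. Members called higher at 48 h numbered 5 without Nnm replicate 2 of that time and 4 without Nnm replicate 2 of 24 h. They numbered 0 when any 48 h control array, any 24 h control array, Nnm replicate 1 or 3 of 48 h or Nnm replicate 3 of 24 h was left out. The count lower reached 2 (HEXA and FLCN) without Nnm replicate 2 of 48 h. Here too the whole table moved in the same way. Of 22829 probe sets limma called 2323 at 48 h with all arrays, in either direction. It called 6117 without Nnm replicate 2 of 48 h and 4607 without Nnm replicate 2 of 24 h. In the fits with 0 members higher it called 207 to 1745.

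**Figure D2:**
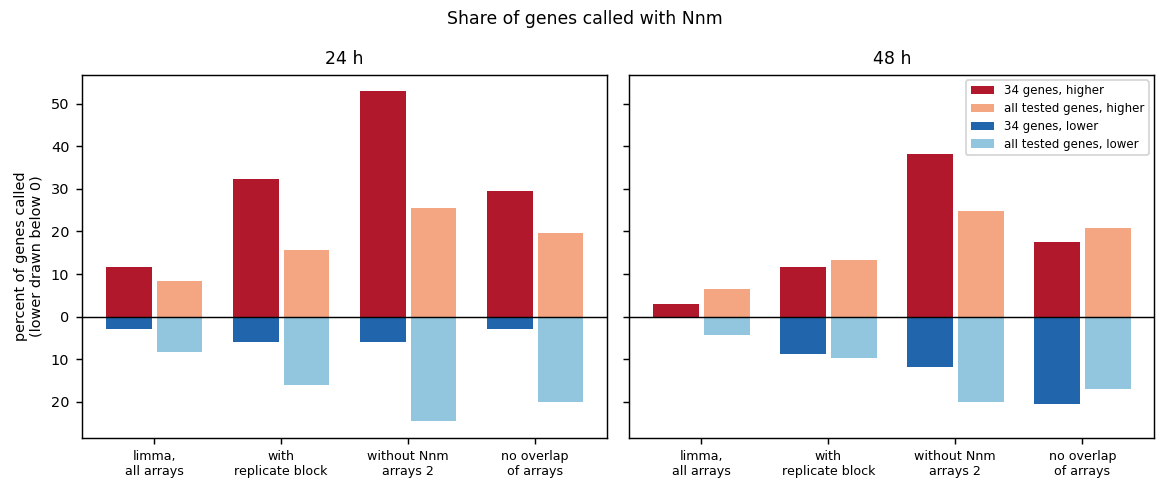
Percent of the 34 genes (dark bars) and of all 10963 tested genes (pale bars) called higher (above 0) or lower (drawn below 0) with Nnm at 24 h (left) and 48 h (right), by 3 limma fits and by non-overlap of the arrays. At 24 h the 34 genes have more higher calls than the background in every column, and fewer lower calls. The higher calls are 11.8% against 8.31% by limma with all arrays and 32.4% against 15.6% with the block. At 48 h they exceed the background among higher calls only without the Nnm arrays numbered 2. The columns share arrays and the genes were chosen with earlier results of these data known, so the columns are no independent support.

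Transcription factors. TFEB, a master regulator of lysosomal genes, had 24 h log2 levels of 5.03, 4.60 and 4.54 in control replicates 1, 2 and 3 and 7.27, 4.90 and 6.90 in Nnm replicates 1, 2 and 3. Nnm replicates 1 and 3 were well above all controls, and replicate 2 lay within their range. The change was 1.63 ± 0.71 (SE, n = 3 against 3), 3.1-fold, with a limma adjusted p of 0.127 without and 0.0416 with the replicate block. Without the Nnm arrays numbered 2 it was 2.36 (limma adjusted p = 0.000183). This probe set is dim, with a mean of 5.39, the lowest of the members. At 48 h TFEB read 4.91, 4.62 and 4.71 in controls and 6.99, 4.15 and 6.05 with Nnm. Replicate 2 was there below every control. The change of 0.98 ± 0.71 passed neither fit (limma adjusted p = 0.373, and 0.181 with the block), against 1.77 without the Nnm arrays numbered 2 (limma adjusted p = 0.00106). A second TFEB probe set, with a mean of 5.05, gave smaller changes. They were 0.50 at 24 h (limma adjusted p = 0.102, and 0.0199 with the block) and 0.19 at 48 h (0.550, and 0.257 with the block).

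TFE3, which shares many targets with TFEB, had log2 levels of 10.00, 9.74 and 10.01 in 24 h controls and 11.45, 10.01 and 11.26 with Nnm. Again only Nnm replicates 1 and 3 stood clear of the controls. The change was 0.99 ± 0.38 (limma adjusted p = 0.0946, and 0.0251 with the block), and 1.44 without the Nnm arrays numbered 2 (0.000111). At 48 h the levels were 9.75, 9.66 and 10.03 in controls and 10.99, 9.85 and 10.82 with Nnm, a difference of 0.74 ± 0.38 that passed neither fit (0.217, and 0.0665 with the block), against 1.09 without those arrays (limma adjusted p = 0.000624). MITF, the family member known for pigment cells, differed in the other direction. Its 24 h levels were 10.86, 11.03 and 11.19 in controls and 9.76, 11.12 and 10.36 with Nnm, and its 48 h levels were 10.72, 11.10 and 10.89 in controls and 9.76, 11.08 and 10.38 with Nnm. Replicates 1 and 3 lay below the controls at both times and replicate 2 among them. The differences, -0.61 and -0.49, passed neither fit, while without the Nnm arrays numbered 2 they were -0.96 and -0.83 (limma adjusted p = 0.00924 and 0.0204).

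Rag GTPase and folliculin. RRAGD, a Rag GTPase that brings mTORC1 to the lysosome and is itself a known target of the TFEB family, had 24 h log2 levels of 9.39, 9.07 and 9.05 in controls and 11.66, 9.43 and 11.58 with Nnm. All Nnm arrays were above all controls, replicate 2 by the least. The change of 1.72 ± 0.63, 3.29-fold, was called with the block (limma adjusted p = 0.0304) and not without it (0.0831), and was 2.45 without the Nnm arrays numbered 2 (9.98e-06). At 48 h controls read 9.85, 9.78 and 9.84 and Nnm arrays 11.99, 9.82 and 11.64, so that replicate 2 lay within the controls. The 48 h difference was 1.32 ± 0.63 (0.181, and 0.0728 with the block), and 1.99 without those arrays (limma adjusted p = 3.06e-05). FLCN, the folliculin gene, whose protein activates the same Rag GTPases, differed by -0.23 at 24 h and -0.45 at 48 h and passed neither fit, while without those arrays it was -0.68 at 48 h (0.0351).

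Lysosomal membrane. The major membrane glycoproteins LAMP1 and LAMP2, the calcium channel MCOLN1 and the membrane protein TMEM192 were called in neither fit at either time. LAMP1, with the 6 cores in its promoter window, ranged from 13.16 to 13.40 over all 12 arrays, and its changes of 0.09 ± 0.11 and 0.06 ± 0.11 were within their standard errors. LAMP2 differed by 0.26 and 0.24, the latter 0.37 without the Nnm arrays numbered 2 (limma adjusted p = 0.0346), TMEM192 by 0.26 and 0.07, and MCOLN1 by -0.15 and -0.41. At 24 h all 3 Nnm arrays of LAMP2, at 12.61 to 12.76, were above the controls at 12.39 to 12.44. All 3 Nnm arrays of MCOLN1 at 48 h, at 6.73 to 7.20, were below the controls at 7.35 to 7.53.

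Lysosomal enzymes. The cysteine proteases cathepsin L and cathepsin B had the largest positive changes of the 9 enzymes at both times. CTSL read 9.09, 9.18 and 9.43 in 48 h controls and 10.96, 9.65 and 10.80 with Nnm, with no overlap. Its rise was 1.24 ± 0.33, 2.36-fold (limma adjusted p = 0.0429, and 0.0145 with the block). At 24 h the levels were 9.50, 9.33 and 9.56 in controls and 10.73, 9.78 and 10.50 with Nnm, again without overlap, and the change of 0.87 ± 0.33 was called with the block (0.0333), not without it (0.0926), and was 1.15 without the Nnm arrays numbered 2 (0.000259). When 1 array was left out, the 48 h adjusted p of CTSL ran from 0.00206 without Nnm replicate 2 to 0.163 without Nnm replicate 1 of that time. It stayed under 0.05 in 3 of these 12 fits, those without Nnm replicate 2 of either time or without Nnm replicate 1 of 24 h.

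CTSB read 10.66, 10.22 and 10.55 in 48 h controls and 12.78, 10.49 and 12.22 with Nnm. Nnm replicates 1 and 3 were far above the controls and replicate 2 was inside their range. The difference of 1.35 ± 0.50 was called with the block (limma adjusted p = 0.0246, against 0.100 without it). Without the Nnm arrays numbered 2 it was 2.02 (0.000300), and in the fit with all arrays the 5 CTSB probe sets gave 1.28 to 2.02. At 24 h the levels were 10.71, 10.21 and 10.47 in controls and 11.88, 10.77 and 11.34 with Nnm. These did not overlap, but the change of 0.87 ± 0.50 passed neither fit (0.234, and 0.0741 with the block), against 1.15 without those arrays (limma adjusted p = 0.00438).

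GAA, the acid alpha-glucosidase that degrades lysosomal glycogen, went the other way. Its log2 levels at 24 h were 6.61, 5.71 and 5.77 in controls and 5.75, 4.80 and 4.96 with Nnm, and at 48 h 6.61, 5.85 and 6.24 in controls and 5.67, 5.71 and 4.77 with Nnm. Every Nnm array was below the control of its own number, by 0.85, 0.91 and 0.81 at 24 h and by 0.93, 0.14 and 1.46 at 48 h. The groups overlapped at 24 h, where Nnm replicate 1 lay between controls, and not at 48 h. The differences of -0.86 ± 0.36 and -0.85 ± 0.36 were called with the block (limma adjusted p = 0.0313 and 0.0377) and not without it (0.116 and 0.142), nor without the Nnm arrays numbered 2 (0.188 and 0.0651). This probe set is dim, with a mean of 5.71.

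HEXA, a subunit of beta-hexosaminidase, was called lower with the block at 48 h. Controls read 10.38, 10.22 and 10.18 and Nnm arrays 9.80, 10.11 and 9.59, without overlap, a difference of -0.42 ± 0.16 (limma adjusted p = 0.0433, against 0.108 without the block), and of -0.56 without the Nnm arrays numbered 2 (0.00826). At 24 h it read 10.04, 9.94 and 9.78 in controls and 9.72, 9.93 and 9.55 with Nnm, which overlapped (-0.18 ± 0.16). The other 5 enzymes, CTSA, CTSD, CTSZ, GLA and NEU1, were called in neither fit, with changes of -0.23 to 0.49 at 24 h and -0.45 to 0.13 at 48 h. GLA, the alpha-galactosidase deficient in Fabry disease, differed by 0.24 at 24 h and by -0.45 at 48 h, where Nnm arrays at 10.45 to 10.92 lay below controls at 11.04 to 11.27. GLA was called at both times without the Nnm arrays numbered 2, at 0.47 for 24 h and -0.55 for 48 h (limma adjusted p = 0.0228 and 0.0140). NEU1, the sialidase, differed by 0.49 at 24 h, against 0.78 without those arrays (0.00264).

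Proton pump. The V-ATPase acidifies the lysosome, and 5 of its subunits were members. ATP6V1A, its catalytic subunit, read 11.95, 11.94 and 11.48 in 24 h controls and 12.70, 11.99 and 12.69 with Nnm. The groups did not overlap, though replicate 2 was only 0.05 above its control. The change of 0.67 ± 0.21 was called with the block (limma adjusted p = 0.0398, against 0.0553), and was 0.91 without the Nnm arrays numbered 2 (0.00177). At 48 h controls were at 12.38, 12.48 and 12.24 and Nnm arrays at 12.65, 12.34 and 12.47, overlapping, with a change of 0.12 ± 0.21. ATP6V1A also had the lowest p of all members for time in control cells, 0.58 higher at 48 h than at 24 h (unadjusted p = 0.0196, limma adjusted p = 0.533).

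ATP6V0D1, a subunit of the membrane sector, read 12.02, 11.65 and 12.13 in 48 h controls and 11.52, 11.20 and 11.64 with Nnm. Every Nnm array was 0.45 to 0.49 below the control of its number, and all were below all controls. The difference of -0.48 ± 0.25 was called with the block (limma adjusted p = 0.0391) and not without it (0.228), nor without the Nnm arrays numbered 2 (-0.35, 0.135). At 24 h it read 12.04, 11.66 and 12.02 in controls and 12.25, 11.33 and 12.21 with Nnm, a difference of 0.02 ± 0.25. ATP6V1B2, ATP6V1H and ATP6V1C1 were called in neither fit, with changes of up to 0.56 at 24 h and of -0.31 to 0.01 at 48 h. In each of these 3 genes Nnm replicate 2 was below its control at both times. With those arrays left out ATP6V1H was higher by 1.00 at 24 h (limma adjusted p = 0.000542) and ATP6V1C1 by 0.72 (0.0123), while ATP6V1B2, at 0.31, was not called (0.119).

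Autophagy start and nucleation. ULK1, the kinase that starts autophagy, had the largest mean change of all 34 genes. Its only probe set is dim, with a mean of 5.76. At 24 h it read 5.47, 4.60 and 4.86 in controls and 8.29, 5.29 and 7.62 with Nnm. Nnm replicates 1 and 3 were over 2 log2 units above the highest control and replicate 2 was within the controls, but all 3 were above the control of their number. The change of 2.09 ± 0.77, 4.26-fold, was called with the block (limma adjusted p = 0.0182) and not without it (0.0856). At 48 h controls read 5.25, 4.46 and 4.39 and Nnm arrays 7.28, 4.83 and 6.72, with replicate 2 again within the controls. The 48 h change was 1.58 ± 0.77, again called with the block (0.0444) and not without it (0.195). The changes were 2.98 and 2.30 without the Nnm arrays numbered 2 (limma adjusted p = 0.000217 and 0.00108).

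UVRAG, a partner of beclin 1 in the lipid kinase complex, read 6.92, 7.04 and 6.44 in 24 h controls and 8.44, 7.00 and 8.40 with Nnm. Its Nnm replicate 2 lay within the controls, 0.04 under the control of its number, so the rise rests on replicates 1 and 3. The change was 1.15 ± 0.34 (limma adjusted p = 0.0483, and 0.0319 with the block). With 1 array left out the adjusted p ran from 0.000679 without Nnm replicate 2 of 24 h to 0.183 without Nnm replicate 1, and was under 0.05 only without either Nnm replicate 2. At 48 h UVRAG read 7.15, 6.91 and 6.90 in controls and 7.67, 7.25 and 7.59 with Nnm. Those groups did not overlap, but the difference of 0.52 ± 0.34 passed neither fit (0.331), against 0.65 without the Nnm arrays numbered 2 (limma adjusted p = 0.0175). WIPI1, which binds the early autophagy membrane, differed by 1.02 ± 0.44 at 24 h and 0.60 ± 0.44 at 48 h and passed neither fit (limma adjusted p = 0.127 and 0.387). Without those arrays its changes were 1.51 and 1.05 (0.000268 and 0.00224). BECN1, the beclin 1 gene, differed by -0.10 and -0.09 (0.597 and 0.637).

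ATG conjugation. ATG5, ATG12 and ATG16L1 encode the complex that attaches ATG8 proteins to lipid, and the ATG12 probe set read 9.27, 9.55 and 9.62 in 24 h controls and 10.38, 9.90 and 10.53 with Nnm. All Nnm arrays were above all controls, and the rise was 0.79 ± 0.19, 1.73-fold (limma adjusted p = 0.0259). At 48 h controls were at 9.43, 9.76 and 9.65 and Nnm arrays at 10.18, 9.85 and 10.14, a difference of 0.45 ± 0.19 that passed neither fit (0.137) although the groups did not overlap, and of 0.55 without the Nnm arrays numbered 2 (0.0155). With 1 array left out the 24 h adjusted p of ATG12 ran from 0.00207 to 0.108. It was above 0.05 without Nnm replicate 1 (0.108) or 3 (0.101) or control replicate 1 (0.0880) or 3 (0.0817) of 24 h.

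ATG5 read 9.77, 9.88 and 10.02 in 24 h controls and 10.89, 10.09 and 10.94 with Nnm, and 9.62, 9.75 and 9.84 in 48 h controls and 10.24, 10.19 and 10.52 with Nnm. The groups overlapped at neither time. The 24 h rise was 0.75 ± 0.21 (limma adjusted p = 0.0418), and the 48 h difference of 0.58 ± 0.21 missed the threshold in both fits (0.100, and 0.0518 with the block), against 0.64 without the Nnm arrays numbered 2 (0.00431). The 24 h adjusted p lay between 0.000927 and 0.163 with 1 array left out, and under 0.05 only without either Nnm replicate 2. ATG16L1 read 6.89, 6.77 and 6.80 in 24 h controls and 7.87, 7.16 and 8.20 with Nnm. At 48 h it read 6.46, 6.41 and 6.62 in controls and 7.82, 6.76 and 7.49 with Nnm. All Nnm arrays were above all controls at both times, and the changes of 0.93 ± 0.29 and 0.86 ± 0.29 were called with the block (0.0217 and 0.0300) and not without it (limma adjusted p = 0.0558 and 0.0806). They were 1.22 and 1.16 without the Nnm arrays numbered 2 (0.000222 and 0.000382).

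ATG7, the enzyme that activates both ATG12 and the ATG8 proteins for conjugation, was the only member that limma called lower without the block and with all arrays. At 24 h it read 7.51, 7.47 and 7.63 in controls and 6.00, 7.08 and 6.43 with Nnm, with every Nnm array below every control. The change was -1.03 ± 0.28 (limma adjusted p = 0.0357, and 0.0250 with the block). The other tested ATG7 probe sets gave -0.75 and -0.27 at 24 h and passed neither fit (limma adjusted p = 0.0846 and 0.368, and 0.0837 and 0.229 with the block). At 48 h controls read 7.07, 6.78 and 7.57 and Nnm arrays 6.98, 6.99 and 7.40, which overlapped, and the difference was -0.01 ± 0.28. With 1 array left out, the 24 h adjusted p ran from 0.00280 without Nnm replicate 2 of 24 h to 0.138 without Nnm replicate 1. It was above 0.05 without Nnm replicate 1 or 3 or any control of 24 h (0.0678 to 0.138), and without control replicate 1 of 48 h (0.0520).

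ATG8 family. GABARAPL1, an ATG8 protein that coats autophagy membranes, had the lowest adjusted p of the 34 genes at 24 h. It read 7.96, 7.95 and 7.89 in controls and 9.77, 8.38 and 9.61 with Nnm. All Nnm arrays were above the controls, replicate 2 by 0.43 and the others by 1.81 and 1.72. The rise was 1.32 ± 0.30, 2.5-fold (limma adjusted p = 0.0248, and 0.0141 with the block). At 48 h controls read 8.08, 8.07 and 8.36 and Nnm arrays 8.93, 8.54 and 8.78, again without overlap, but the difference of 0.58 ± 0.30 passed neither fit (0.222), against 0.69 without the Nnm arrays numbered 2 (limma adjusted p = 0.00271). With 1 array left out the 24 h adjusted p ran from 0.000267 to 0.103. It was above 0.05 without Nnm replicate 1 (0.103) or 3 (0.0964) or control replicate 1 (0.0738), 2 (0.0505) or 3 (0.0947) of 24 h. MAP1LC3B, which encodes the ATG8 protein LC3B used as the standard marker of autophagy membranes, differed by 0.21 and -0.32, and GABARAPL2 by 0.27 and 0.05; both passed neither fit. MAP1LC3B was higher by 0.71 at 24 h without the Nnm arrays numbered 2 (limma adjusted p = 0.00366), and at 48 h it was not called (-0.20, 0.304). Its Nnm replicate 2 was 0.72 below its control at 24 h, and replicates 1 and 3 were 0.78 and 0.56 above theirs.

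**Figure D3:**
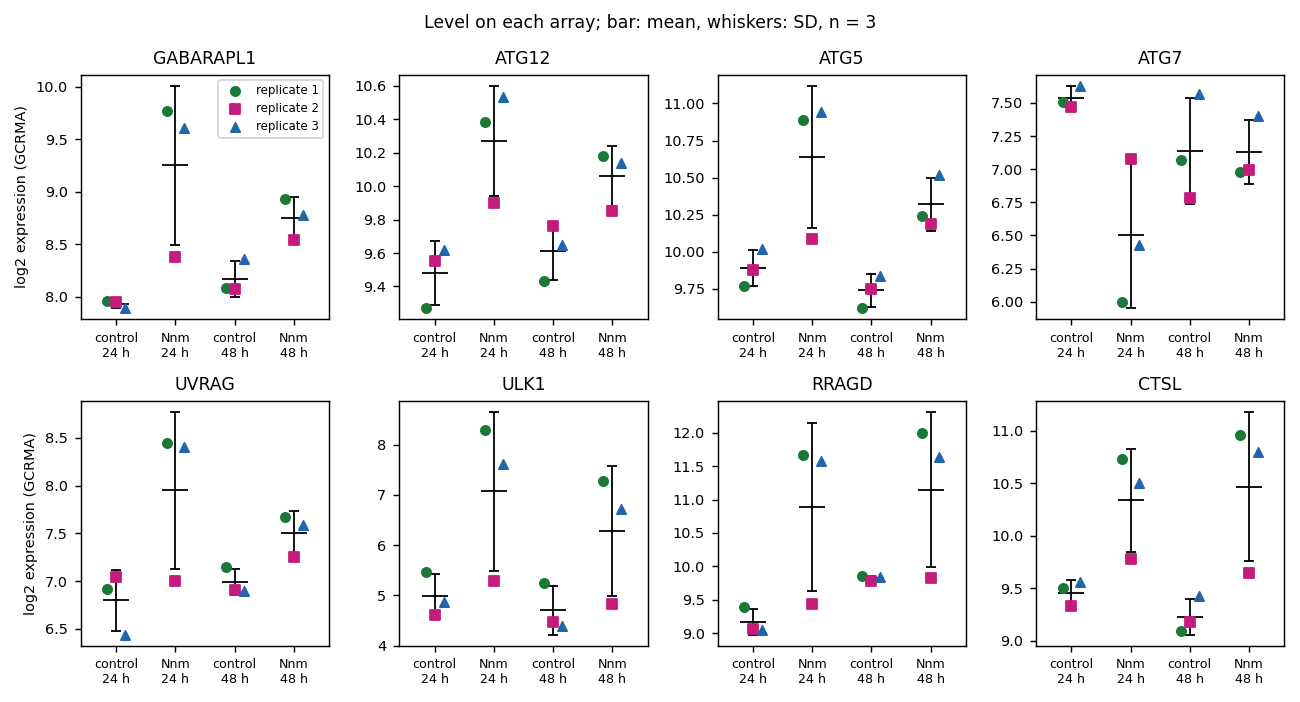
Log2 expression of 8 genes on each array, by group; symbols are the 3 replicates, horizontal bars the group mean and whiskers the SD (n = 3). Each panel has its own axis, which does not start at 0. Nnm replicate 2 is the Nnm array nearest the controls at 24 h in all 8 panels, and ATG7 is the gene whose Nnm arrays lie below the controls at 24 h only.

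The times were compared directly. Of the 34 changes, 29 had the same sign at both times, and 25 were smaller in size at 48 h. CTSB and CTSL were larger at 48 h (1.35 and 1.24, against 0.87 each). The counts of same sign and smaller size were not made over all tested genes. Ignoring sign, the members' median difference for replicates 1, 2 and 3 was 0.87, 0.26 and 0.77 at 24 h and 0.52, 0.27 and 0.43 at 48 h. For all tested genes it was also smaller at 48 h, at 0.47, 0.21 and 0.41, against 0.51, 0.22 and 0.50 at 24 h. No probe set passed limma for the difference between the Nnm effects, with or without the block: 0 of 22829 were called, against 1418 and 2321 at an unadjusted p under 0.05. Among the members the unadjusted p was under 0.05 for 2 genes, ATG7 (0.0249) and GLA (0.0378), and the lowest adjusted p was 0.780. Without both Nnm arrays numbered 2, limma called 2556 probe sets (11.2%) and 6 members for this difference. These were GABARAPL1 (adjusted p = 0.0105), GLA (0.0181), MAP1LC3B (0.0279), ATG7 (0.0357), ATP6V1H (0.0405) and UVRAG (0.0408). In control cells, 48 h against 24 h, limma called 0 probe sets (1836 at an unadjusted p under 0.05) and 12 with the block (0.0526% of those tested), none of them a member's.

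**Figure D4:**
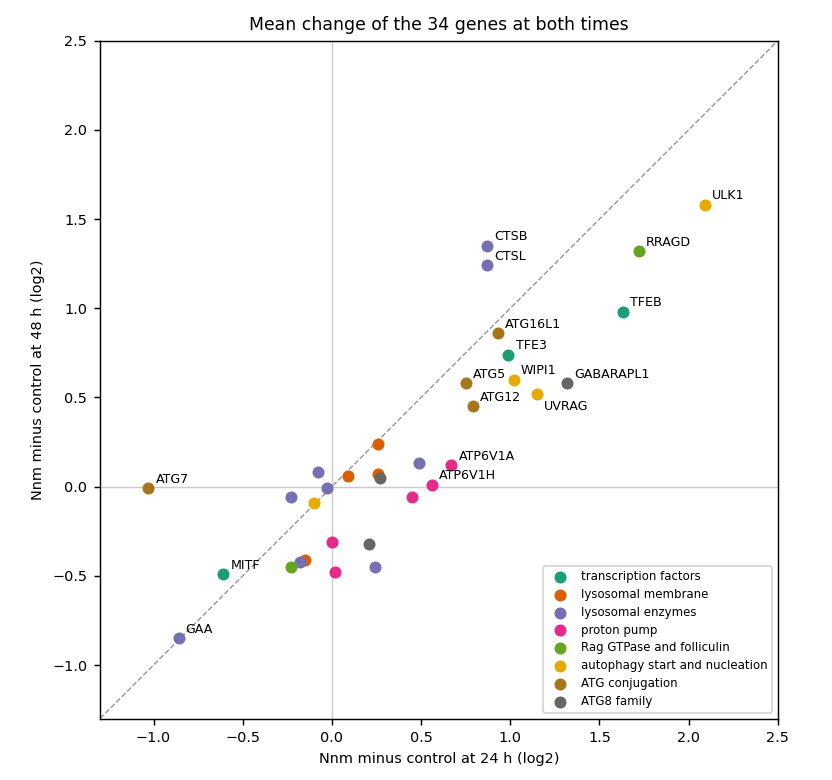
Mean log2 difference, Nnm minus control, at 24 h (x axis) against 48 h (y axis) for the 34 genes, coloured by role; the dashed line marks equal changes. ULK1, RRAGD and TFEB lie far out at both times, CTSB and CTSL above the line, and ATG7 at -1.03 on the x axis and near 0 on the y axis. Each gene is drawn from its brightest probe set, and the second TFEB probe set gave 0.50 at 24 h and 0.19 at 48 h.

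The genes with the E-box core in the promoter window can be set beside those without. For the 7 with it (LAMP1, MCOLN1, CTSA, CTSD, NEU1, GAA and ATP6V0D1) the median change was -0.03 at 24 h, between -0.86 and 0.49, and limma called 0 of them. With the block 0 were higher, 1 was lower at 24 h (GAA) and 2 at 48 h (GAA and ATP6V0D1). For the 18 without it the median change was 0.51 at 24 h, between -1.03 and 2.09; limma called 3 higher and 1 lower, and the block 8 higher and 1 lower. At 24 h 1 of the 7 was higher (NEU1) and 0 lower without the Nnm arrays numbered 2, against 11 and 2 of the 18. The background at 24 h was 8.31% of all tested genes higher and 8.21% lower by limma, 15.6% and 15.9% with the block, and 25.4% and 24.5% without those arrays, and limma's counts with all arrays rest on few genes in both sets. At 48 h limma called 1 of the 18 higher and 0 lower, and the block 3 higher and 0 lower. Without those arrays 9 of the 18 were higher and 3 lower, against 0 and 0 of the 7. The background at 48 h was 6.55% higher and 4.27% lower by limma. It was 13.2% and 9.68% with the block, and 24.9% and 19.9% without those arrays. The median changes at 48 h were -0.06 for the 7 and 0.26 for the 18. The difference between these sets was not tested. The 7 were all lysosomal membrane, enzyme or pump genes, and all matched autophagy genes were among the 18, so the sets also differ in role. LAMP2, CTSB, HEXA, ATP6V1A, ATP6V1B2, ATP6V1H, ATP6V1C1, RRAGD and UVRAG had no matched window and are in neither set. The windows cover 1 annotated start for each of 25 genes, which need not be its main start. A match to these letters does not show binding.

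Other genes of the same pathways were counted from lists that share no gene with the 34. Of 32 tested genes of the autophagy machinery, limma called 4 higher and 2 lower at 24 h and 2 and 1 at 48 h, with medians of 0.19 and 0.14. The background over all tested genes was 8.31% higher and 8.21% lower at 24 h and 6.55% and 4.27% at 48 h, so these counts are near it. With the block, where the background was 15.6% and 15.9%, then 13.2% and 9.68%, the machinery counts were 7 and 2, then 3 and 2. Without the Nnm arrays numbered 2 (25.4% and 24.5%, then 24.9% and 19.9%) they were 13 and 6, then 9 and 5. RB1CC1, the scaffold of the ULK1 complex, rose by 1.33 at 24 h (limma adjusted p = 0.0255), ATG14, which directs the lipid kinase to autophagy, by 0.85 (0.0279), and EPG5, a fusion factor, fell by 0.88 (0.0257). At 48 h ULK2, the kinase related to ULK1, rose by 1.35 (0.0215), and it was also called at 24 h (0.99, 0.0441). VMP1, a membrane protein of early autophagy, rose by 1.01 at 48 h (0.0483), while TP53INP2, which binds ATG8 proteins, fell by 0.82 (0.0300). Of 16 autophagy receptors, which tie cargo to ATG8 proteins, 3 were higher and 0 lower at 24 h and 1 and 0 at 48 h, with medians of 0.26 and 0.01. The block gave 3 and 0, then 4 and 0, and the fit without those arrays 8 and 0, then 5 and 2. NBR1 went from 9.70 ± 0.05 to 10.96 ± 0.33 at 24 h (SD, n = 3 each; 0.00912), CALCOCO2 rose by 0.67 (0.0419) and by 0.70 at 48 h (0.0440), and TAX1BP1 by 0.65 (0.0496).

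Among 28 other lysosomal enzymes 2 were higher and 0 lower at 24 h, and 1 was higher and 1 lower at 48 h; with the block these counts were 11 and 1, and 6 and 2, and 10 and 4, and 7 and 5, without the Nnm arrays numbered 2. The medians were 0.26 and 0.19. The background over all tested genes was 8.31% higher and 8.21% lower at 24 h, then 6.55% and 4.27% at 48 h. It was 15.6% and 15.9%, then 13.2% and 9.68%, with the block. Without those arrays it was 25.4% and 24.5%, then 24.9% and 19.9%. Limma's counts with all arrays rest on few genes in each list. MANBA, beta-mannosidase, rose by 1.07 at 24 h (limma adjusted p = 0.0381) and the protease CTSK by 1.35 from a control mean of 4.18 ± 0.42 (0.0371). FUCA1, alpha-fucosidase, rose by 0.85 at 48 h (0.0172), and NAGLU, which degrades heparan sulfate, fell by 1.32 (0.0284). Of 19 other membrane proteins 3 were higher and 1 lower at 24 h and 2 and 2 at 48 h, with medians of 0.03 and -0.15. The block gave 4 and 2, then 3 and 3, and the fit without those arrays 4 and 1, then 4 and 4. SCARB2, the receptor that carries glucocerebrosidase to the lysosome, rose from 11.41 ± 0.13 to 12.26 ± 0.17 at 24 h and from 11.86 ± 0.12 to 12.74 ± 0.31 at 48 h (0.0168 at both). CTNS, the cystine exporter mutated in cystinosis, fell from 7.61 ± 0.22 to 5.99 ± 0.58 and from 7.93 ± 0.20 to 6.37 ± 0.77 (0.0248 and 0.0303). SLC17A5, the sialic acid exporter, rose by 0.97 at 24 h (0.0226), and the channel MCOLN2 by 0.77 at 24 h (0.0274) and 0.76 at 48 h (0.0323).

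Of 12 other proton pump subunits 1, ATP6V1D, was lower at each time, by 0.49 and 0.57 on the log2 scale (limma adjusted p = 0.0390 and 0.0310), and 0 were higher; the medians were 0.14 and -0.07. The block added 1 higher at 48 h, and 4 were higher and 2 lower at 24 h, and 3 and 2 at 48 h, without the Nnm arrays numbered 2. For these lists too the background was 8.31% higher and 8.21% lower at 24 h, then 6.55% and 4.27% at 48 h. With the block it was 15.6% and 15.9%, then 13.2% and 9.68%. Without those arrays it was 25.4% and 24.5%, then 24.9% and 19.9%. Of 24 genes of mTORC1 and Rag nutrient sensing limma called 0 higher with all arrays, while RRAGA (-1.21, 0.0228) and MLST8 (-1.13, 0.0296) were lower at 24 h and FNIP2 (-0.98, 0.0257) at 48 h. The medians were -0.12 at both times. The block added 1 higher at 24 h (DDIT4, 0.0454), and without those arrays 7 were higher and 4 lower at 24 h and 2 and 4 at 48 h. RRAGA pairs with RRAGC or RRAGD in the Rag dimer, MLST8 is a subunit of mTORC1, and FNIP2 is a partner of folliculin. Of 16 sorting and fusion genes VPS41 rose by 0.59 at 24 h (0.0400), and limma called 0 lower at 24 h and 0 at 48 h with all arrays, with medians of -0.01 and 0.02. With the block 2 were higher and 2 lower at 24 h (VPS41 and GNPTAB, VPS11 and VPS18), and without those arrays 6 and 3 at 24 h and 2 and 3 at 48 h. Of 6 other transcriptional regulators 2 were tested and limma called 0 at either time, while FOXO3 was higher at 24 h with the block (0.55, 0.0333) and without those arrays (0.70, 0.00650).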

How the data were processed

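Expression was measured on 12 arrays, 1 per HK-2 culture, in 4 groups of 3 biological replicates as the labels name them. For each array the deposited table gives log2 expression by probe set, which the authors computed with GCRMA per the submitters' processing notes. GCRMA corrects background by probe sequence and normalizes arrays to each other, so a shift shared by most genes would not show; the set of arrays normalized together is not stated in the sources read here. No pair of arrays held identical values. The number of arrays limits the precision.

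The 62 control probe sets were left out, and probe sets with a log2 value above 4 on at least 3 of 12 arrays were tested. Probe sets were named from the platform annotation, and old symbols were replaced from RefSeq's GRCh38.p14 gene table. A gene was read from the probe set naming it alone with the highest mean. One model over all arrays with 8 residual degrees of freedom was fitted in limma 3.58.1 (lmFit, contrasts.fit, eBayes; R 4.3.3), tested on simulated data first. Calls used a Benjamini-Hochberg adjusted p under 0.05 over all 22829 tested probe sets. Every p in the text is from this fit or the named alternative, and standard errors (SE) are limma's.

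Same-numbered arrays of different groups deviated together (18 correlations of 0.162 to 0.669, against a median of -0.208 for the other 36 pairs), so the replicate numbers were taken to pair the samples. The deviations were taken from each group's mean. Positive correlations of same-numbered arrays therefore push the other pairs lower, and the -0.208 is not an independent reference. This pairing comes from the data, not from the labels.

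The 34 genes, the other lists and the alternatives were chosen with earlier results of these data known. Values on every array are given for members called with or without the replicate block at either time and for TFEB, TFE3 and MITF. From each other list up to 3 called genes with the smallest adjusted p at each time were named. Where limma called such a gene at the other time too, both changes are given. The other lists were lysosomal enzymes, lysosomal membrane proteins, proton pump subunits, autophagy machinery, autophagy receptors, mTORC1 and Rag nutrient sensing, sorting and fusion, and transcriptional regulators. Alternatives covered the filter, the normalization, the replicate block, array weights, the probe set of a gene and leaving out arrays.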

Additional observations from a re-analysis of the deposited data

How the results depend on the processing

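No member's value called by limma with all arrays changed sign under the alternatives run. ATG16L1 at 48 h, called only with the block (0.86), was -0.12 for its second probe set (limma adjusted p = 0.869). With the replicate block over all 12 arrays the probe sets called were 6700 at 24 h (3366 without it), 5046 at 48 h (2323 without it) and 12 for time in control cells (0 without it), and members numbered 11 higher and 2 lower at 24 h and 4 higher and 3 lower at 48 h; it changed no other call of a member. With the replicate block within the time, on 6 arrays, 0 probe sets and 0 members were called at 24 h and at 48 h. Without both Nnm arrays numbered 2, limma called 10730, 9605, 2556 (difference of the Nnm effects) and 26 (time in control cells) probe sets, with 18 members higher and 2 lower at 24 h and 13 and 4 at 48 h. Array weights, which gave these arrays 0.136 and 0.196, called 12093, 11202, 3899 and 94 probe sets, with 19 members higher and 3 lower at 24 h and 12 and 5 at 48 h. With no filter 848, 842, 2 and 1 probe sets were called, and 0 members in either direction. The filter at log2 6, median centring and quantile normalization each called 1 probe set for time in control cells and moved no other of these counts by over 1.5 times. The mean of a gene's probe sets gave 2 members higher at 48 h, and the second probe set gave 2 higher and 0 lower at 24 h and 2 higher and 1 lower at 48 h. Leaving out each array in turn gave 81 to 8683 probe sets at 24 h, 207 to 6117 at 48 h, 0 to 1028 for the difference and 0 to 4 for time in control cells. Members then numbered 0 to 17 higher and 0 to 2 lower at 24 h, and 0 to 5 higher and 0 to 2 lower at 48 h. The cause of these moves was not tested. Over the members given array by array, 604 values kept their side of the threshold, 59 lost it and 85 gained it. The design holds 3 arrays a group, which limits what can be called.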

Other observations

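Probe sets of the same gene differed for some members. LAMP2, at 0.24 for its brightest probe set at 48 h, had 2 others at 0.62 and 0.57 (limma adjusted p = 0.0323 and 0.0305) and the other at 0.05. For ATP6V1C1 the brightest gave -0.06 at 48 h while another gave -0.87 (0.0343). The second GABARAPL1 probe set rose by 1.83 at 24 h (0.0136), against 1.32 for the brightest, and the dimmest ATG5 probe set rose by 0.79 at 48 h (0.0443). Of the ATG12 probe sets 1 gave 0.06 at 24 h, against 0.79 and 0.66 for the others, and the second ATG16L1 probe set gave 0.29, against 0.93. At 48 h that ATG16L1 probe set gave -0.12, against 0.86 for the brightest. The second TFEB probe set gave 0.50 at 24 h (0.102, and 0.0199 with the replicate block), against 1.63. The 3 tested TFE3 probe sets gave 0.99 to 1.45 at 24 h, and the other 2 of ATG7 gave -0.75 and -0.27, against -1.03. These probe sets were singled out with their values known.

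SQSTM1, the p62 receptor often read beside LC3B, was in the receptor list and was not called with all arrays: it differed by 0.96 at 24 h (limma adjusted p = 0.191, and 0.0541 with the block) and 0.44 at 48 h (0.582). Without the Nnm arrays numbered 2 it was 1.59 at 24 h and 0.87 at 48 h, and limma called it at both (0.000135 and 0.00400). Its Nnm replicate 2 was 0.11 and 0.15 below its control at 24 h and 48 h. It was named here after its values were seen.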
